A study of Triticum aestivum with 10 samples.

Results

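Cold during meiosis was compared with a constant 20 °C in anthers of middle length, 2.2 and 2.5 mm, of the wheat line BS366. The comparison used 4 of the 10 arrays of the series, chosen by anther length and treatment: the sterile arrays at 2.2 and 2.5 mm against the fertile arrays at the same lengths, which the study, together with 3.0 mm, supposes to be key periods. BS366 is a thermosensitive genic male sterile (TGMS) line, a natural mutant selected from doubled haploid lines, so all samples share 1 genetic background. All plants were vernalised in the field and then kept in phytotrons at 20 °C with 12 h of light. Fertile anthers came from plants left at that temperature, and sterile anthers from plants moved to 10 °C for 5 d with the same 12 h of light. Each length and treatment has 1 array, and the sources used here do not say whether its RNA was pooled over plants. The 2 lengths therefore stood in for replicates, and p-values measure the spread between arrays of different length only.

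In an anther, meiocytes divide to form microspores, while the tapetum, the cell layer that lines the locule, feeds them and supplies proteins and lipids of the pollen wall. The tapetum is secretory and short-lived, and its transcripts rise and fall as the anther grows. Dividing or DNA-replicating cells carry high levels of histone and tubulin transcripts. Green cells of the anther wall carry transcripts of photosynthesis. Because whole anthers were used, fewer cells of a type and less RNA per cell cannot be told apart.

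Transcripts were measured on the Affymetrix Wheat Genome Array, whose signals are linear intensities per probe set. A probe set is a group of short probes for 1 transcript or for several similar ones. Signals under 4.05 were raised to that floor, log2 was taken, and 30590 probe sets of sufficient mean level were tested with limma. The 10 arrays were alike in mean signal (117.7 to 125.5) and in the share of probe sets at the floor (19.3% to 21.2%). Control probe sets, which were left out of the tests, were less even. The 12 poly-A spike-in sets, RNA added to the sample, were 4.52-fold (2.2 mm) and 5.15-fold (2.5 mm) brighter on the sterile arrays by their geometric mean. The 9 hybridisation controls had a geometric mean of 613.7 on the fertile 2.2-mm array against 172.9 to 284.8 on the other 9. The 18S rRNA control read 3.91 and 9.26 in fertile and 39.7 and 134.7 in sterile anthers of 2.2 and 2.5 mm. The ratio of the 3' to the 5' ubiquitin set was 0.421 and 0.521 in fertile and 0.694 and 0.578 in sterile anthers. The spike-ins, the 18S rRNA and the ubiquitin ratio moved with treatment at both lengths, while the hybridisation controls set the fertile 2.2-mm array apart (sterile over fertile 0.35 at 2.2 mm and 1.17 at 2.5 mm). Their part in the results was not tested.

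Cold-treated mid-length anthers had lower signals of the tapetum genes TaRAFTIN1A and TaRAFTIN1B and of some photosynthesis and antioxidant genes. In the test below, 2 of 7 sugar and starch probe sets also passed as lower. Most histone and 3 of 10 tubulin probe sets passed as higher. Most of these calls were lost without the 2.5-mm pair, or with a spread estimate that ignores signal level. The difference was tested as the mean of the sterile minus fertile log2 values at 2.2 and 2.5 mm. Of all probe sets tested, 1709 (5.59%) were higher and 1550 (5.07%) lower at an adjusted p under 0.05 from limma, together 10.7%. Each of the 3259 had the same sign at both lengths. The number rests on both pairs of arrays and on how the spread is modelled. Without the 2.2-mm pair 359 passed higher and 552 lower, without the 2.5-mm pair 273 and 311, and with a spread estimate that ignores signal level 257 and 494. With no filter on dim probe sets none passed by limma, although 9296 had an unadjusted p under 0.05. That fit includes 3002 probe sets at the floor on all 8 arrays. With those left out, an alternative chosen after seeing the data, 526 passed higher and 705 lower.

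At the level of single lengths, 895 tested probe sets (2.93%) were at least 2-fold higher and 1249 (4.08%) at least 2-fold lower in sterile anthers at both 2.2 and 2.5 mm. A further 150 were 2-fold apart in opposite directions, of which 113 were higher at 2.2 mm and lower at 2.5 mm. Of the probe sets 2-fold apart in the same direction, 761 (85%) and 1017 (81.4%) also passed limma. Both rules use the same differences at 2.2 and 2.5 mm, so this overlap is no separate evidence. At least 4-fold differences at both lengths were found for 113 higher and 317 lower probe sets, and at least 8-fold differences for 36 and 154. Of the lower ones 815 (65.3%) were further apart at 2.5 mm than at 2.2 mm, and of the higher ones 446 (49.8%). Over all tested probe sets the median difference was 0.16 at 2.2 mm and -0.06 at 2.5 mm on the log2 scale.

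**Figure D1:**
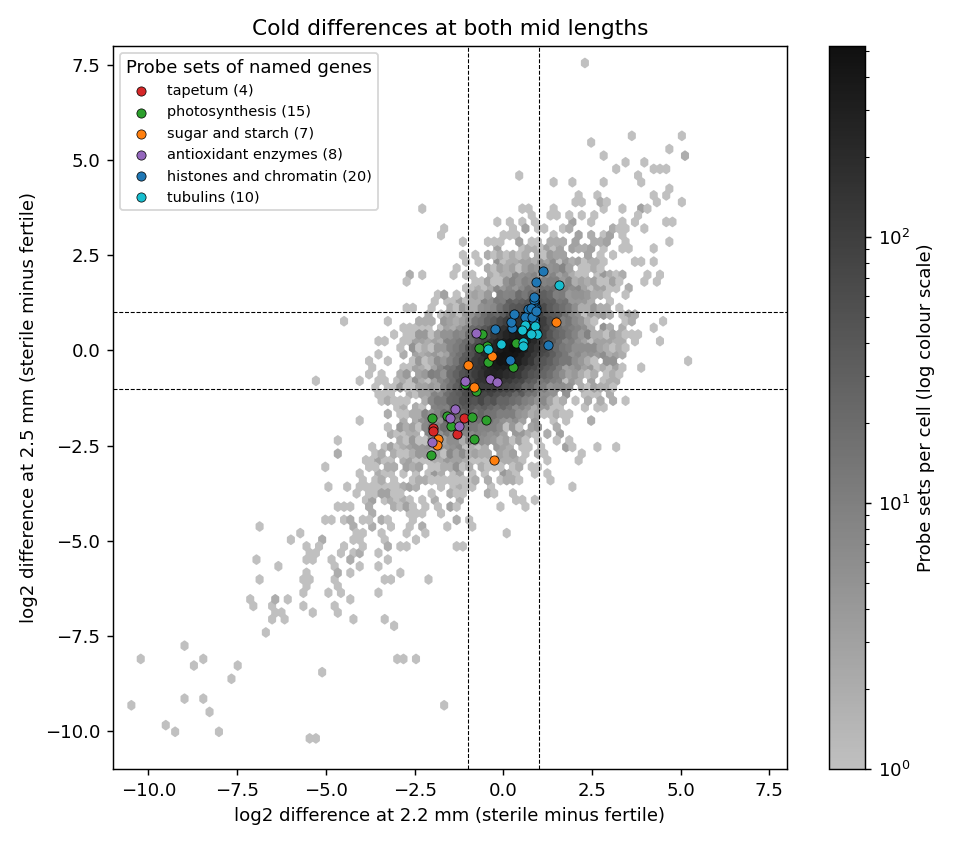
Sterile minus fertile log2 difference at 2.2 mm (x) and at 2.5 mm (y) for the 30590 tested probe sets, shaded by the number of probe sets per cell, with probe sets of 6 gene lists as coloured points and dashed lines at 2-fold. Of the probe sets, 895 lie beyond 2-fold at both lengths at upper right and 1249 at lower left. All 4 tapetum points lie at lower left.

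The annotation used here names few of these transcripts. A gene was listed for 866 tested probe sets, and for 121 of these, from 76 genes, it was more than a LOC number. Among the 121, 17 (14%, 9 genes) passed limma higher and 25 (20.7%, 19 genes) lower, against 5.59% and 5.07% of all probe sets tested. All 17 that passed higher were in the lists of histones and chromatin or of tubulins. Without the 2.5-mm pair 5 of the 42 calls remained, and without the 2.2-mm pair 20 remained.

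TaRAFTIN1A and TaRAFTIN1B encode BURP-domain proteins that the tapetum makes and that reach the pollen wall. Each copy may also be read by the other's probe sets. The brighter TaRAFTIN1A probe set read 5903 and 4499 in fertile and 1484 and 1092 in sterile anthers of 2.2 and 2.5 mm. Both sterile signals lay below both fertile ones, and also below the fertile signals at 1.5 and 2.0 mm (1577 and 2395). On average TaRAFTIN1A differed by -2.02 on the log2 scale (standard error 0.20; limma, adjusted p = 0.00063). The other TaRAFTIN1A probe set was lower by less, with -1.44 (adjusted p = 0.0072 from limma). The TaRAFTIN1B probe sets had -2.04 (standard error 0.20, adjusted p = 0.00069 from limma) and -1.75 (adjusted p = 0.0032 from limma). All 4 tapetum probe sets passed, with a median of -1.88 beside 0.05 over all tested probe sets. The brighter set of each gene passed in each of the 11 alternatives other than the unfiltered one. The dimmer sets did not pass without the 2.5-mm pair. With a spread estimate that ignores signal level they did not pass either (limma, adjusted p = 0.078 for TaRAFTIN1A and 0.057 for TaRAFTIN1B). Unfiltered but without the floored probe sets, the dimmer TaRAFTIN1A set had an adjusted p of 0.051 from limma. At 1.5 and 2.0 mm TaRAFTIN1A already differed by -1.79 (adjusted p = 0.0064 from limma), and the difference between mid and short lengths was -0.23 (adjusted p = 0.78). At 3.0 mm the sterile signal of TaRAFTIN1A was 2750 and the fertile one 5666.

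Photosynthesis genes were lower in part. Of the list's 15 tested probe sets (6 genes), 7 passed lower, 0 higher and 8 did not pass, with a median of -0.98. Of named probe sets 20.7% passed lower, and of all tested 5.07%. PRK, the phosphoribulokinase that makes the CO2 acceptor of the Calvin cycle, read 773.1 and 1007 in fertile and 188.0 and 151.3 in sterile anthers. Its sterile signals thus lay below the fertile ones of short anthers (187.1 and 217.9) at 2.5 mm, and between them at 2.2 mm. The log2 difference of PRK was -2.39 (standard error 0.24, adjusted p = 0.00081 from limma), and it passed in the same 11 alternatives. PsbP, an extrinsic protein of the oxygen-evolving complex of photosystem II, read 2919 and 2487 in fertile and 1061 and 628.5 in sterile anthers. Its brighter probe set differed by -1.72 (standard error 0.23, adjusted p = 0.0030 from limma) and its dimmer one by -1.65.

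Other members of the list differed between probe sets. FBP, the fructose-1,6-bisphosphatase, fell by 1.58 on the log2 scale (standard error 0.37, adjusted p = 0.031 from limma). For FBP the difference at 2.5 mm (-2.33) was larger than at 2.2 mm (-0.82), and a dimmer FBP probe set had -0.08 (adjusted p = 0.94). PsbO, another protein of the oxygen-evolving complex, and petC, the Rieske protein of the cytochrome b6f complex, differed by -0.92 and -0.98 (limma, adjusted p = 0.021 and 0.026). The 8 probe sets of rbcl, named for the large subunit of Rubisco, did not move together. The brightest read 8573 and 5763 in fertile and 6299 and 6308 in sterile anthers, a difference of -0.16 (adjusted p = 0.66 from limma). A dimmer rbcl probe set went from 239.4 and 228.7 to 59.9 and 66.4, a difference of -1.89 (adjusted p = 0.011 from limma). Without the 2.5-mm pair, PRK was the 1 of these 7 calls to remain.

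In the sugar and starch list 2 of 7 probe sets (7 genes) passed lower and 5 did not pass, with a median of -0.89, where 20.7% of named and 5.07% of all tested probe sets passed lower. Pgk-1, a phosphoglycerate kinase, read 1877 and 2058 in fertile and 512.1 and 367.1 in sterile anthers. Its log2 difference was -2.18 (standard error 0.25, adjusted p = 0.0014 from limma; adjusted p = 0.051 without the 2.5-mm pair). BMY1, a beta-amylase that releases maltose from starch, read 1327 and 1136 in fertile and 370.4 and 226.3 in sterile anthers. BMY1 differed by -2.08 (standard error 0.35, adjusted p = 0.0084 from limma) and lost the call without either pair, and also with a spread estimate that ignores signal level. The remaining members ran from -1.57 for 6-FEH, a fructan hydrolase whose difference was -0.25 at 2.2 mm and -2.89 at 2.5 mm, to 1.11 for PMM, a phosphomannomutase. Neither passed (adjusted p = 0.14 and 0.13 from limma).

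Of the 8 probe sets for antioxidant enzymes (5 genes), 5 passed lower and 3 did not, with a median of -1.19. The share passing lower was 20.7% over named and 5.07% over all tested probe sets. Prx1, grouped with peroxidases by its name, had 3 probe sets lower by 1.45 to 2.22. The brightest read 1097 and 1182 in fertile and 384.4 and 348.7 in sterile anthers, with adjusted p = 0.0016 from limma. Trx-M, the chloroplast thioredoxin m, read 558.0 and 752.6 in fertile and 233.2 and 190.6 in sterile anthers. Trx-M differed by -1.62 (standard error 0.25, adjusted p = 0.0055 from limma), a call lost without the 2.5-mm pair and also with a spread estimate that ignores signal level. At 3.0 mm the order of Prx1 was the other way round, with 492.3 in fertile and 687.5 in sterile anthers, and Trx-M was at 433.6 and 444.5. CAT1, a catalase, differed by -0.94 (adjusted p = 0.044 from limma), after a larger difference of -2.59 at the short lengths (adjusted p = 0.0036). CAT1 passed in 4 of the same 11 alternatives. At 3.0 mm its order was also the other way round, with 60 in fertile and 225 in sterile anthers. GSTZ1, a glutathione transferase, and PER1, a peroxiredoxin, did not pass.

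**Figure D2:**
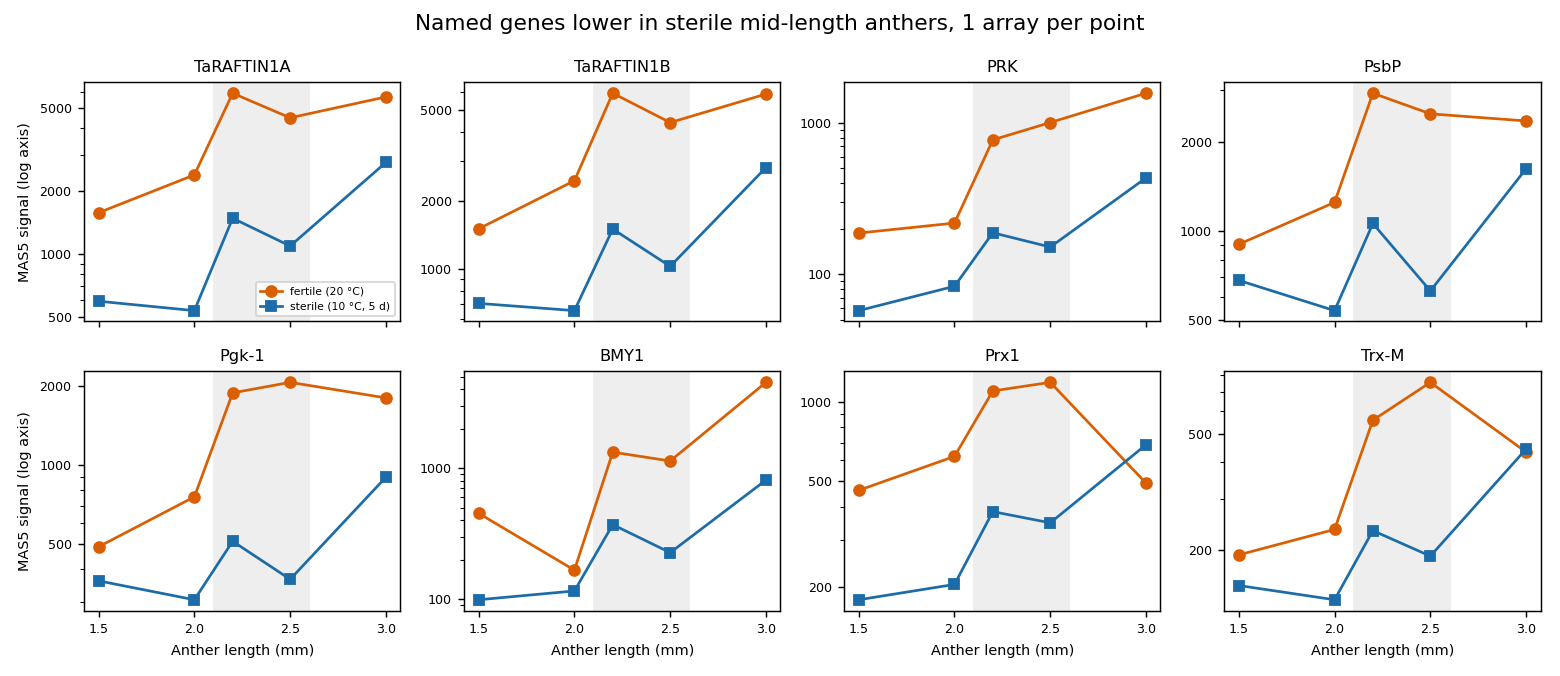
MAS5 signal (log axis) against anther length in mm for 8 named genes lower in sterile mid-length anthers, each by its brightest probe set, with 1 array per point and no error bars. The 2.2- and 2.5-mm arrays are shaded. In the shaded zone each sterile signal lies below both fertile ones, and at 3.0 mm Prx1 and Trx-M are as high or higher in the sterile series (687.5 against 492.3 for Prx1).

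Some genes outside these lists also fell. LTP3, a lipid transfer protein, read 115.8 and 145.6 in fertile and 11.6 and 45.3 in sterile anthers, which differed by -2.5 (standard error 0.47; limma, adjusted p = 0.013). The fertile signal of LTP3 reached 2554 at 3.0 mm while the sterile one was 36.9. One probe set of lgul, lactoylglutathione lyase, had -2.20 (adjusted p = 0.018 from limma) and the other -0.98 (adjusted p = 0.089). RPL9, a ribosomal protein, had -1.23 (adjusted p = 0.011 from limma), the only 1 of 8 translation probe sets to pass, while the median of that list was 0.02. By comparison, 20.7% of named and 5.07% of all tested probe sets passed lower. TSA had -0.70 (adjusted p = 0.031 from limma). At 3.0 mm the order of RPL9 and TSA was the other way round, with 32.5 and 1131 in fertile and 294.5 and 2136 in sterile anthers. For the plasma membrane H+-ATPase, which drives uptake across the membrane, 2 probe sets differed by -0.97 and -0.99 (limma, adjusted p = 0.012 and 0.020), while another of that gene had 0.10 (adjusted p = 0.82). GA20ox1b, a gibberellin 20-oxidase of hormone synthesis, was dim, with 41.6 and 66.5 in fertile and 17.8 and 30.4 in sterile anthers, and did not pass (-1.18, adjusted p = 0.13 from limma).

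PEAMT1, which methylates phosphoethanolamine on the way to phosphocholine, read 1473 and 2076 in fertile and 737.0 and 733.8 in sterile anthers. Its sterile signals stayed at the level of the sterile short anthers (704.6 and 741.0), while the fertile ones lay above the fertile short ones (444.7 and 692.9). The log2 difference of PEAMT1 was -1.25 at the mid lengths (standard error 0.21, adjusted p = 0.0080 from limma) and 0.38 at the short lengths (adjusted p = 0.54). The contrast of the 2 was -1.63 (adjusted p = 0.041 from limma). That contrast did not pass without the 2.2-mm pair (adjusted p = 0.088), without the 2.5-mm pair (adjusted p = 0.19), with the higher floor (adjusted p = 0.062), with a spread estimate that ignores signal level (adjusted p = 0.27) or in the unfiltered fits (adjusted p = 0.43 and 0.20), and passed in 4 of 10 alternatives. In the list of the methyl cycle and methyltransferases, PEAMT1 was the 1 probe set of 5 to pass, where 20.7% of named and 5.07% of all tested probe sets passed lower. COMT1, a methyltransferase of lignin synthesis, had -0.72 (adjusted p = 0.063 from limma), and SAHH, which recycles the by-product of methylation, had -0.12 and -0.47 (adjusted p = 0.64 and 0.10).

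Histone and chromatin genes were higher in sterile anthers for most probe sets. Of all tested probe sets 5.59% passed higher, and of named ones 14%, all of them from this list and the tubulin list. Of the list's 20 probe sets (6 genes), 14 passed higher, 0 lower and 6 did not pass, with a median of 0.84 (0.86 at 2.2 mm and 0.92 at 2.5 mm). Many of these probe sets belong to the same gene or to near-identical histone copies and may share transcripts. H2A-2 read 424.2 and 267.1 in fertile and 917.6 and 1134 in sterile anthers. H2A-2 differed by 1.60 (standard error 0.26, adjusted p = 0.0069 from limma) and was the 1 named histone at least 2-fold higher at both lengths. Its fertile signals ran from 1231 at 1.5 mm to 71.5 at 3.0 mm, whereas the sterile ones stayed between 684.9 and 1134.

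H2A-3 differed by 1.36 by its brighter probe set (standard error 0.21; limma, adjusted p = 0.0061), with 986.1 and 640.5 in fertile and 1865 and 2232 in sterile anthers. A dim H2A-3 probe set, 28.8 to 43.1 on these 4 arrays, had -0.03. Of the 6 H2A-9 probe sets 4 passed, with 0.89 to 1.13, and the 2 brightest had 0.42 and 0.48 (adjusted p = 0.11 and 0.10 from limma). The H2B genes wcH2B-8 and wcH2B-6 passed by 5 and 2 probe sets that were higher by 0.74 to 0.99. Hmgb3, a high-mobility-group protein that binds DNA, had 0.72 (adjusted p = 0.030 from limma) by one probe set and 0.17 (adjusted p = 0.64) by the brighter one.

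Tubulin genes, which make the microtubules of the spindle and of the cell cortex, passed for 3 of 10 probe sets (6 genes), all higher, with a median of 0.57. Of named probe sets 14% passed higher, all of them from this list and the histone and chromatin list, and of all tested 5.59%. A dim TUBA probe set, for alpha-tubulin, read 37.6 and 28.2 in fertile and 112.1 and 93.6 in sterile anthers. This probe set differed by 1.65 (standard error 0.29, adjusted p = 0.010 from limma), while the other, brighter one for TUBA had -0.19 (adjusted p = 0.50). The beta-tubulins tubb3 and tubb1 were higher by 0.77 and 0.65 (limma, adjusted p = 0.018 and 0.031), while tubb2 had 0.06 (adjusted p = 0.85). None of the 14 histone and 3 tubulin calls remained without the 2.5-mm pair, and without the 2.2-mm pair 8 histone and 0 tubulin calls remained. With a spread estimate that ignores signal level, 0 histone and 1 tubulin calls remained. Under each scaling tried, no named call changed sign.

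**Figure D3:**
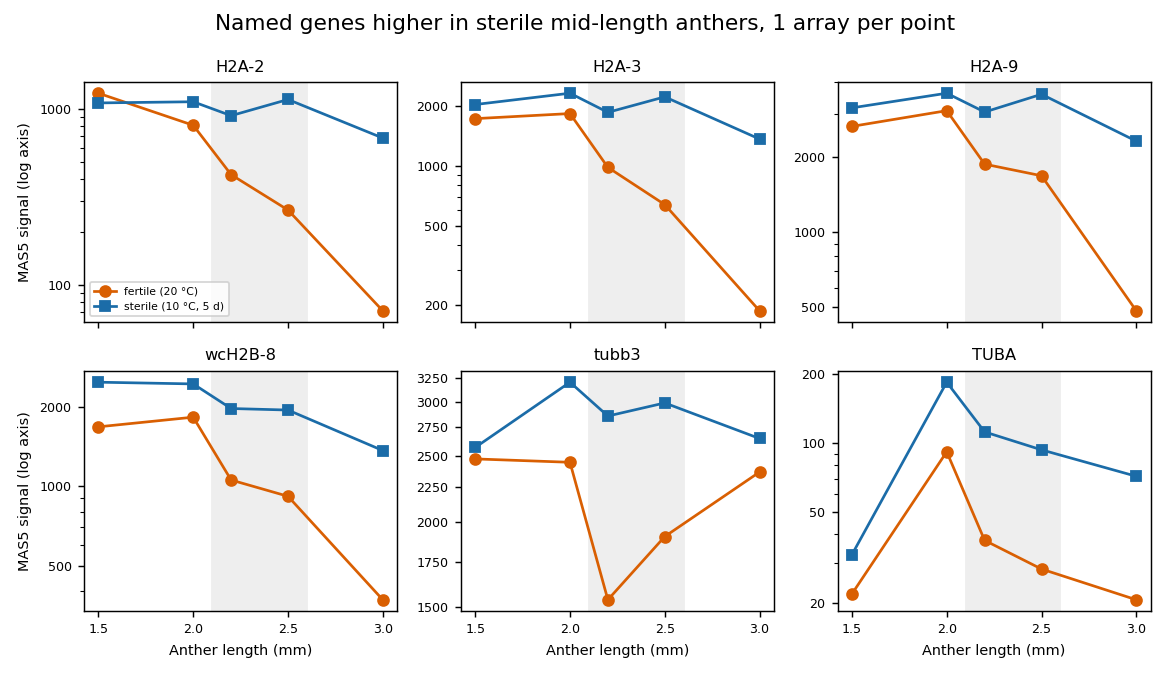
MAS5 signal (log axis) against anther length in mm for 6 named histone and tubulin genes, by a probe set that passed, with 1 array per point and no error bars, and the 2.2- and 2.5-mm arrays shaded. The fertile signal of H2A-2 goes from 1231 at 1.5 mm to 71.5 at 3.0 mm and the sterile one stays between 684.9 and 1134.

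Other lists held few passing members. Of 6 probe sets for defence proteins and inhibitors, LTP3 alone passed, where 20.7% of named and 5.07% of all tested probe sets passed lower. TaGlu1a, a beta-glucosidase by its name, had -0.92 (adjusted p = 0.075 from limma). Of 3 probe sets for cold and dehydration proteins, 0 passed. Rab15, a dehydrin, gave 0.98 and 2.32 by limma (adjusted p = 0.064 and 0.11), with 4.96 and 9.73 in fertile and 66.6 and 18.0 in sterile anthers by its dimmer probe set. None of 3 seed storage probe sets passed, with a median of -0.05.

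**Figure D4:**
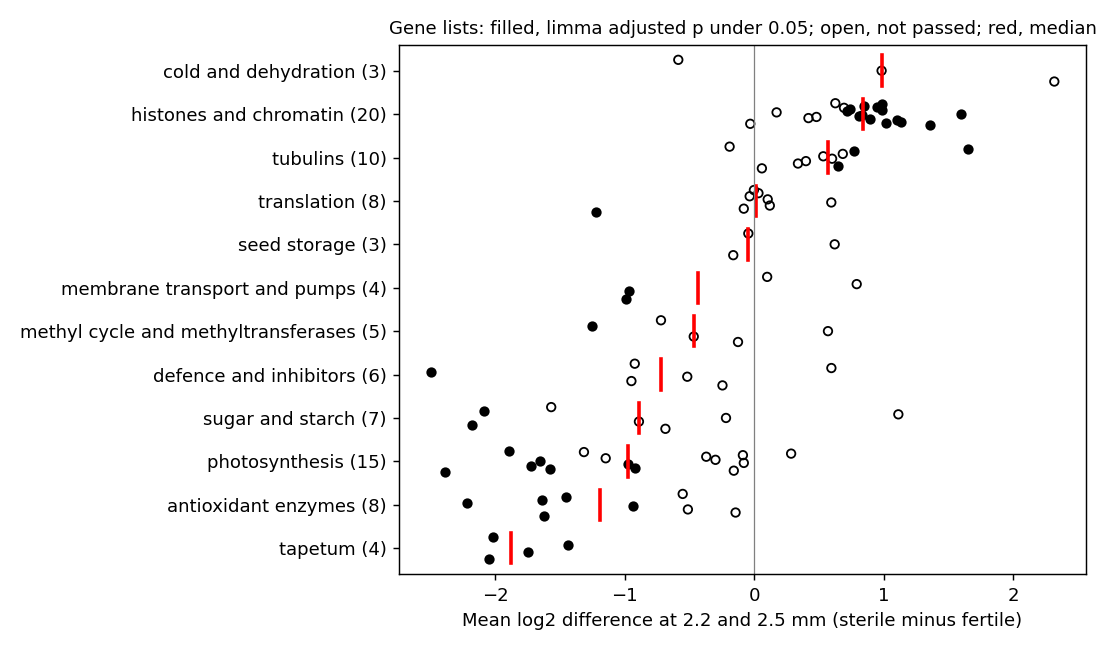
Mean sterile minus fertile log2 difference at 2.2 and 2.5 mm (x) of each tested probe set in 12 gene lists (y, number of probe sets in brackets), filled where limma's adjusted p is under 0.05, with the list's median in red. The medians run from -1.88 for tapetum to 0.84 for histones and chromatin and 0.98 for the 3 cold and dehydration probe sets, none of which is filled.

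Genes known in the annotation only by a LOC number included larger differences. LOC542836 read 538.2 and 329.8 in fertile and 2289 and 2519 in sterile anthers, higher by 2.51 (standard error 0.21; limma, adjusted p = 0.00029). Its sterile signals lay close to the fertile ones at 1.5 and 2.0 mm (2622 and 2042). LOC542796 and LOC543244 followed with 2.01 and 1.84 (limma, adjusted p = 0.00069 and 0.0012). LOC542826, LOC542977, LOC778394, LOC542874 and LOC543218 were higher by 1.64 to 3.77 but were under 20 on both fertile mid arrays. Of these, LOC778394, LOC542874 and LOC543218 lost the call without either pair. With the higher floor the difference of LOC542826 went from 3.77 to 1.97, and that of LOC778394 from 3.56 to 2.11 (adjusted p = 0.17 from limma).

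Among the lower ones, LOC542778 read 5806 and 4694 in fertile and 1389 and 1045 in sterile anthers, which differed by -2.12 (standard error 0.15; limma, adjusted p = 0.00010). At 3.0 mm LOC542778 was at 653.9 in fertile and 3825 in sterile anthers. LOC543390 read 404.3 and 1726 in fertile and 42.2 and 50.2 in sterile anthers, a difference of -4.18 (adjusted p = 0.00061 from limma). LOC100037539, LOC100037560, LOC543359, LOC606390, LOC732707 and LOC543186 were lower by 2.15 to 3.22, each past the threshold. The 8 lower LOC genes kept their direction without either pair, which their choice by the smaller of the 2 differences already ensures.

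The largest differences lay in probe sets without a gene in the annotation, and these moved in opposite directions along the length series. TaAffx.59835.1.S1_x_at read 6168 and 4917 in fertile and 1.05 and 7.46 in sterile anthers of 2.2 and 2.5 mm. It was near background in fertile anthers of 1.5, 2.0 and 3.0 mm (1.01, 1.03 and 9.63) and at 2160 in sterile anthers of 3.0 mm. The fitted difference of TaAffx.59835.1.S1_x_at was -9.97 (adjusted p = 1.7e-05 from limma), the mean of -10.57 at 2.2 mm, where the sterile signal was raised to the floor, and -9.36 at 2.5 mm. It passed the filter on dim probe sets only through the arrays where it is high. TaAffx.105858.1.S1_at and TaAffx.9509.1.S1_at had the same order, with 2535 to 3991 on the fertile mid arrays, 0.761 to 1.90 on the sterile mid arrays and 503.9 and 305.2 in sterile anthers of 3.0 mm. Ta.1725.1.S1_at read 3197 and 2283 in fertile and 5.96 and 1.04 in sterile anthers, and at 3.0 mm it was high in both series (3299 and 1254). Like TaAffx.59835.1.S1_x_at, these other lower probe sets passed the filter only through the arrays where they are high.

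In the other direction, Ta.4046.1.S1_a_at read 2.36 and 3.04 in fertile and 145.6 and 144.1 in sterile anthers, a fitted difference of 5.16 (limma, adjusted p = 6.6e-05). Both fertile signals lay under the floor, which sets that size, and over the alternatives it ran from 3.36 to 5.76. It was at 232.7 and 118.9 in fertile short anthers and at 3083 in fertile anthers of 3.0 mm, against 5.42 in sterile ones. TaAffx.92553.1.S1_at had the same order, with 5235 in fertile and 13.7 in sterile anthers of 3.0 mm. Ta.19005.1.S1_at read 1.77 and 4.92 in fertile and 140.1 and 246.8 in sterile anthers. TaAffx.19109.1.A1_at was near background in the whole fertile series (3.08 to 7.16) and at 177.7 and 140.4 in sterile mid-length anthers. It passed the filter on dim probe sets only through the sterile arrays.

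**Figure D5:**
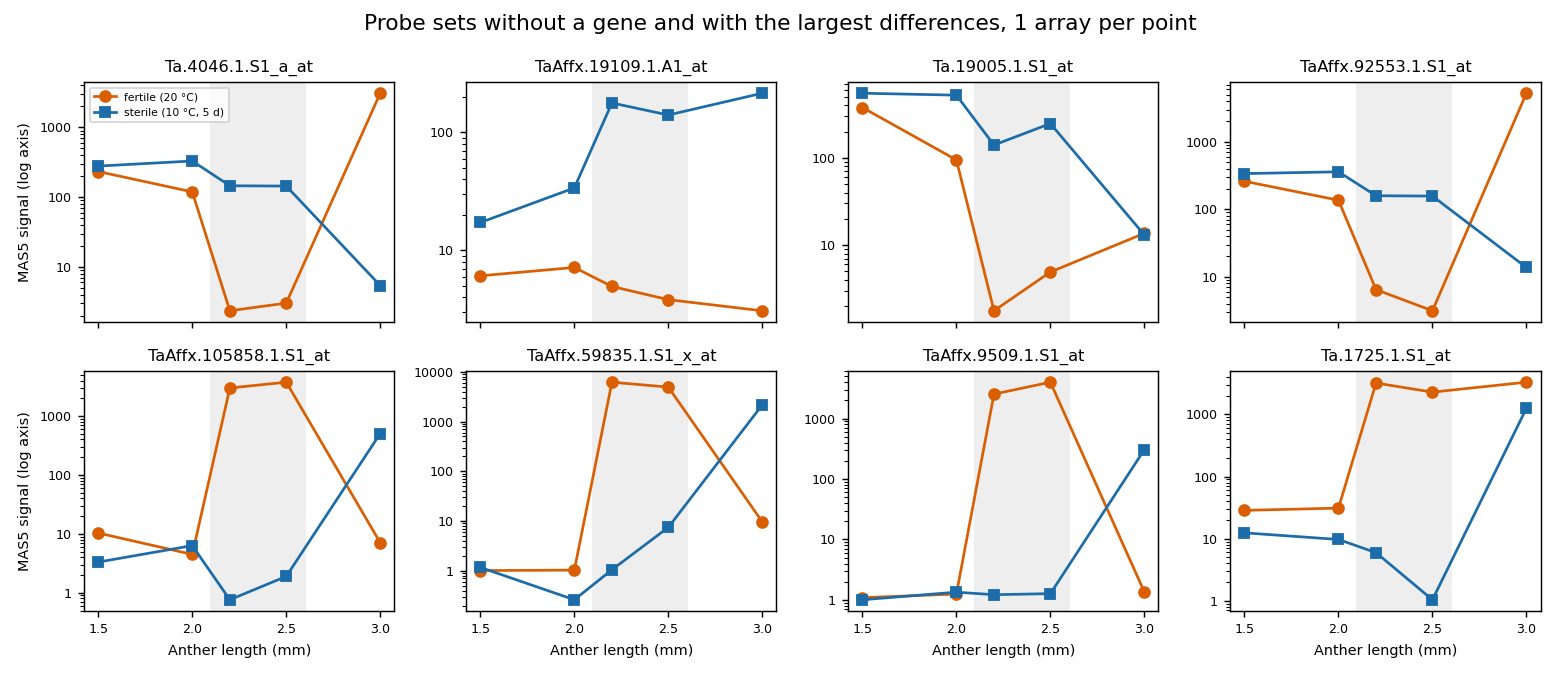
MAS5 signal (log axis) against anther length in mm for the 8 probe sets without a gene that have the largest same-direction differences, 4 higher (top) and 4 lower (bottom), with 1 array per point and the 2.2- and 2.5-mm arrays shaded. Values under 4.05 were raised to that floor for the test. TaAffx.59835.1.S1_x_at is at 6168 and 4917 in fertile mid-length anthers and at 2160 in the sterile series only at 3.0 mm.

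The probe sets 2-fold apart at both mid lengths were then followed along the length series. The choice used the fertile and sterile mid arrays, so the changes given here are a description. In those higher in sterile anthers, the median change from fertile short to fertile mid anthers was -1.33 on the log2 scale, and from sterile short to sterile mid anthers it was -0.08. In those lower in sterile anthers, the medians were 1.26 in the fertile and 0.07 in the sterile series. Both sterile signals lay above all 5 fertile arrays for 284 (31.7%) of the higher probe sets and below all 5 for 520 (41.6%) of the lower ones. For all tested probe sets these shares were 5.81% and 8.14%. The order of the first pair of shares turned with the scaling, to 41.2% above and 34.5% below with quantile normalization and 40.6% and 34.8% with median centring.

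The sterile mid signals both lay within the range of the fertile 1.5- and 2.0-mm arrays for 174 (19.4%) of the higher and 185 (14.8%) of the lower probe sets, against 19.6% of all tested. With that range widened by 0.5 log2 on each side, a width chosen after seeing the data, 745 (83.2%) and 701 (56.1%) lay within it, against 83.3% of all tested. Because the sterile mid arrays took part in the choice and most of the tested probe sets did not pass, these shares are a description with no null to set them against. Over all tested probe sets, which are not independent, the log2 signals of the sterile mid arrays had a Pearson r of 0.944 to 0.956 with the fertile 1.5- and 2.0-mm arrays and 0.855 to 0.876 with the fertile mid arrays. Of the higher probe sets 20 (2.23%) were also 2-fold higher at both short lengths, and of the lower ones 197 (15.8%) were also 2-fold lower, against 0.304% and 1.82% of all tested. At 3.0 mm, 361 (40.3%) were still 2-fold higher and 426 (34.1%) 2-fold lower, against 11.2% and 10.8% of all tested, from 1 array per treatment.

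The effect at mid lengths was also set against that at 1.5 and 2.0 mm, which come from other arrays. At the short lengths 26 probe sets passed limma higher and 255 lower. The difference between the 2 effects passed for 170 probe sets (0.556%) with a more positive and 187 (0.611%) with a more negative effect at the mid lengths. The mid arrays that chose the probe sets 2-fold apart at both mid lengths also enter this difference, so an overlap is in part built in. Of those chosen probe sets, 108 of the higher and 182 of the lower passed for it. For most others, TaRAFTIN1A, PRK and H2A-2 included, no difference between mid and short lengths was detectable with these arrays. For H2A-2 it was 1.47 (adjusted p = 0.12 from limma) and for PRK -0.84 (adjusted p = 0.33).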

How the data were processed

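Total RNA of anthers was labelled with biotin as cRNA and hybridised to the wheat array of Affymetrix, with a single array for each combination of length and treatment. The authors deposited MAS5 signal intensities for 61290 probe sets on a linear scale, and no version of MAS5 is given in the sources used here. The number of arrays limits the precision.

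Tests left out the 111 control probe sets. Signals were floored at 4.05, the table's 20th percentile, and log2-transformed, which left 30590 probe sets whose mean log2 reached the median. The 8 arrays of 1.5 to 2.5 mm were fitted with limma 3.58.1 in R 4.3.3 (lmFit, eBayes with an intensity trend), with anther length as a block and 1 treatment effect each for short and mid lengths. The fit had 2 residual and 6.73 prior degrees of freedom, and p-values were adjusted by Benjamini-Hochberg over all tested probe sets with a threshold of 0.05. Standard errors are those of the fit. Counts of 2-fold differences at both lengths carry no test.

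The test was tested on simulated data, 10 simulations of the mid-length comparison with 200 of 30590 probe sets changed. With the moderated variances of the real fit it recovered 26.7% of 2-fold and 84.4% of 4-fold changes, with 15.3 false calls of 126 on average. With variances drawn from the fitted prior it recovered 1.6% and 47%, with 2.9 false calls of 51.5. The false share is above the threshold of 0.05 under both models, and further above it under the first. The simulations changed 200 probe sets, whereas 3259 passed in the real fit. The adjustment depends on the share changed, so the recovered shares need not hold there.

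A platform annotation of 1273 probe sets gave 771 genes, of which 770 were found in RefSeq (IWGSC CS RefSeq v2.1), and 59906 probe sets had no gene. No coordinates or sequences are given. Names are RefSeq symbols or synonyms. The genes named are TaRAFTIN1A and TaRAFTIN1B; up to 15 named and 8 LOC genes and 4 probe sets without a gene per direction, ranked by the smaller of their differences at 2.2 and 2.5 mm among those 2-fold apart in the same direction; and up to 4 members of each list of at least 3 tested probe sets. Further members of the lists were added after their values were seen. The arrays compared, the lists and the tests were chosen with earlier results of these data known. Lists of under 3 tested probe sets were not described.

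Alternative settings comprised median centring, quantile normalization, no filter, a stricter filter, a floor of 1, a higher floor (40th percentile), the 4 mid arrays alone with and without the length block, eBayes without a trend, each length pair left out, and thresholds of 1.5- and 3-fold.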

Additional observations from a re-analysis of the deposited data

Results flagged for a closer look

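The cold effect at 2.2 and 2.5 mm departed from that at 1.5 and 2.0 mm for 357 probe sets by limma's test of the difference itself, and 4187 had an unadjusted p under 0.05. The LOC genes and the probe sets without a gene given next were picked for large differences at 2.2 and 2.5 mm. Those differences enter this test, so their passing is in part built in. Among the genes given above this difference between the mid and the short effect was -1.63 for PEAMT1, 4.18 for LOC542826, 1.93 for LOC542836, -4.78 for LOC543390, -1.74 for LOC606390 and -1.85 for LOC543186 on the log2 scale. Among the probe sets without a gene it was 4.29 for Ta.4046.1.S1_a_at, 3.88 for Ta.19005.1.S1_at, 4.06 for TaAffx.92553.1.S1_at, -9.26 for TaAffx.105858.1.S1_at, -9.97 for TaAffx.59835.1.S1_x_at, -9.62 for TaAffx.9509.1.S1_at and -7.66 for Ta.1725.1.S1_at.

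Some control probe sets, which the comparisons do not use, also differed. The sucrose synthase control set read 1746 and 3872 in fertile and 260.6 and 253.0 in sterile anthers of 2.2 and 2.5 mm, a log2 difference of -3.94 at 2.5 mm. The glucose-6-phosphate dehydrogenase control set read 4237 and 3250 in fertile and 703.0 and 502.3 in sterile anthers, a difference of -2.69 at 2.5 mm. The 18S rRNA set differed by 3.86 at 2.5 mm, and the poly-A spike-ins were 5.15-fold brighter on the sterile array of that length. Across the 5 lengths the sterile to fertile ratio of the spike-ins ran from 0.234 at 1.5 mm to 5.15. With 1 array for each length and treatment, none of these control values was tested.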

How the results depend on the processing

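Each probe set given above that had passed kept its direction in each alternative that tested it. For most alternatives this was fixed in advance. Each call had the same sign at both lengths, and a fit without 1 pair gives the difference of the other pair. Fits that change only the filter, the use of the short arrays, the length block or the spread estimate leave the difference as it was. Only the scalings and floors could have turned a sign. The stricter filter tested 56 of the 66 and the floor of 1 tested 63. LOC genes and probe sets without a gene were picked for large differences at both lengths, which favours keeping their calls. The numbers kept are thus in part set by the choice. Of the 66 calls, 25 were kept in each alternative that tested them other than the unfiltered one, which kept 0. The named ones among the 25 were PRK, the brightest Prx1 set and the brighter set each of TaRAFTIN1A and TaRAFTIN1B. All others were LOC genes and probe sets without a gene. With probe sets at the floor on all 8 arrays left out, the unfiltered fit kept 37. Quantile normalization kept 66 of 66, median centring 61, the higher floor 62, the 4 mid arrays alone 64, no length block 62, no trend 30, the fit without the 2.2-mm pair 41 and that without the 2.5-mm pair 26. Of the 42 calls of named probe sets, 5 remained without the 2.5-mm pair and 20 without the 2.2-mm pair.

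The count of higher and lower probe sets went from 1709 and 1550 to 1080 and 1443 without the length block, 257 and 494 without a trend, 273 to 359 and 311 to 552 with 1 pair left out, 0 and 0 without a filter (prior degrees of freedom 1.04), and 526 and 705 without a filter once probe sets at the floor on all 8 arrays were left out. The 4 mid arrays alone gave 3743 calls, 3113 of them shared with the 3259. Without the 2.2-mm pair 842 of 911 calls were shared, and without the 2.5-mm pair 512 of 584. The difference between mid and short effects went from 170 and 187 to 94 higher with median centring, 104 higher with the higher floor, 5 and 40 without a trend, 6 to 54 and 36 to 115 with 1 pair left out, 0 and 0 without a filter, and 5 and 45 without a filter but without the floored probe sets. Fewer arrays enter the fits with a pair left out; for the others the cause was not tested. The median of the translation list turned to -0.0872 without the 2.5-mm pair.

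Counts of 2-fold probe sets follow the fold and the filter by construction. They were 2776 higher and 2831 lower at 1.5-fold, 218 and 504 at 3-fold, and 1860 and 2447 unfiltered, and 812 lower with the stricter filter. Those outside all 5 fertile arrays were 759 above and 1071 below at 1.5-fold, 70 and 213 at 3-fold, 626 and 844 unfiltered, and 326 below with the stricter filter. Those inside the fertile short range were 556 higher and 428 lower at 1.5-fold, 44 and 76 at 3-fold, 352 and 630 unfiltered, 112 and 116 with the stricter filter, 284 lower with the higher floor, and 745 and 701 with the widened range. The labels number no replicates; the fit pairs sterile and fertile arrays by anther length as a block. Signals near the floor limit the size of differences for dim probe sets.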
